A study of Homo sapiens with 12 samples.

Results

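The 3 control libraries of a study of 12 RNA sequencing libraries are described here: MIA PaCa-2 cells that received a lentivirus with a scrambled short hairpin RNA (shRNA) and no knockdown of a named gene. MIA PaCa-2 is an established cell line derived from a carcinoma of the human pancreas. The members were chosen by the sample labels alone, as the 3 libraries titled control shRNA, out of 4 groups of 3, and the knockdown libraries were not used. The cells were grown in DMEM with 10% fetal bovine serum, 5% horse serum and antibiotics, were infected for 72 hours and were sorted on the fluorescence of the virus before RNA was taken. Each library started from 200 ng of total RNA. The fluorescent tag of the control virus is not given in the sources used here, and neither is whether the 3 libraries came from separate cultures, so their spread may be technical. All values come from 1 line, infected and sorted, and they hold for uninfected cells only as far as the virus and the sort left the cells as they were, which was not tested.

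Pancreatic ductal carcinoma arises in the exocrine pancreas, whose acinar cells secrete digestive enzymes and whose duct cells line the way to the gut. Loss of CDKN2A and SMAD4 is common as these tumours progress. Tumours and lines are often placed on a range from a classical type, which keeps the gut and duct programme driven by factors such as GATA6, to a basal-like type, which loses it. MIA PaCa-2 is widely used as a poorly differentiated line with loss of CDKN2A. The study's other groups lowered MSI1 and MSI2, which encode the Musashi RNA-binding proteins.

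The libraries held 35043671, 29763379 and 10948191 estimated counts over 24528 genes, so the third library reads low levels least well. A level of 3 counts, the lowest that was read as signal, stood for 0.0856, 0.101 and 0.274 CPM in libraries 1, 2 and 3. CPM is the count of a gene divided by the total of its library and multiplied by 1000000, and it was used to compare libraries. Genes were compared with each other only as TPM, where the count is divided by the length of the longest transcript in GENCODE 29 and rescaled to sum to 1000000 in every library. A gene was called detected at 1 TPM or more in every library, moderate from 10, high from 100 and very high from 1000, and not detected where it had fewer than 3 counts in every library. Values are given as mean ± SD over the 3 libraries (n = 3). No test was run, since only 1 group is described.

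A value of 0 in this table is not proof of silence. Of 249 subunits of complexes that every dividing cell needs (ribosome, RNA polymerases, proteasome, complex I, spliceosome, TFIID, chaperonin, eIF3 and transfer RNA synthetases, chosen after values were seen), 5 were listed at 0 in all libraries. These were RPS26, POLR3E, NDUFA3, U2AF1 and TAF9, which are a ribosomal protein, a polymerase subunit, a respiratory subunit, a splicing factor and a transcription factor subunit. The abundant nuclear protein gene PTMA and the mitochondrial superoxide dismutase gene SOD2 were also listed at 0. A single gene at or near 0 is therefore given as listed at that value, and more weight lies on families and neighbours that go together.

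The order of 2 genes by TPM also depends on which transcript length is used. With the median in place of the longest transcript length, 66 of 81 gene pairs compared kept their order and 15 reversed, and the ratio moved by over 1.5 times in 47. Such a ratio is followed by its value with the median length. Orders of genes outside these pairs, and the classes of genes near a class border, can depend on the length too.

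Of 24241 genes with a length, 12207 (50.4%) were detected, and of 18952 protein-coding genes 11463 (60.5%) were. Moderate levels or more were reached by 8417 genes (34.7%), high levels or more by 1371 (5.66%), and very high levels by 97. At the other end, 7271 of the genes with a length (30%) had fewer than 3 counts in every library, and among protein-coding genes the share was 20.3%. The level of the median detected gene was 21.2 TPM. The levels formed a main peak above 10 TPM and a broad shoulder below 1 TPM in all 3 libraries. The shoulder of library 3, with the fewest counts, ended at a higher level than those of the others.

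**Figure D1:**
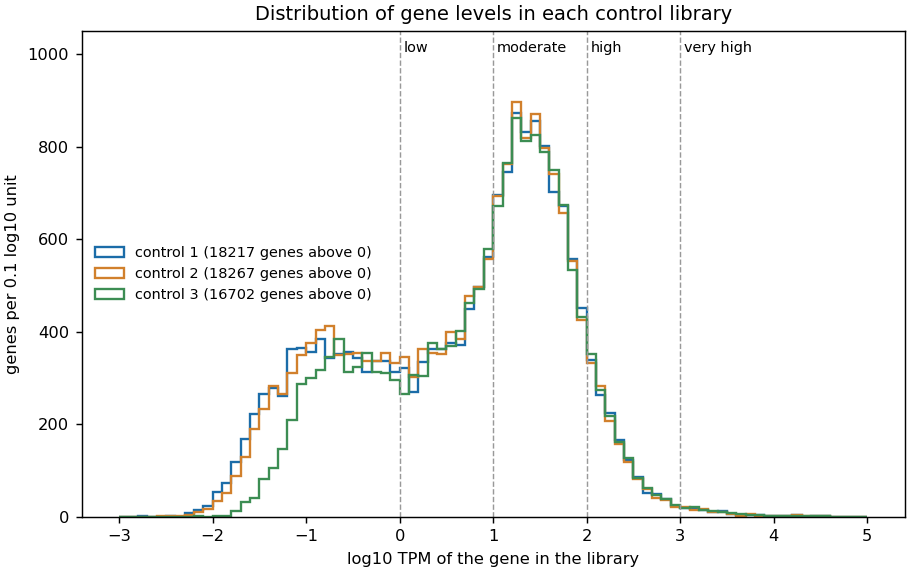
Histogram of gene levels in each control library, with log10 TPM on the horizontal axis and the number of genes in each 0.1 log10 step on the vertical axis, and dashed lines where the low, moderate, high and very high classes begin. The 3 curves lie on each other above 1 TPM, and the curve of library 3, with 10948191 counts, stops short on the left.

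Classes of RNA differed widely in how often they were detected. Of 2825 long noncoding RNA genes 460 were detected (16.3%), and of 1574 microRNA genes, whose short products these libraries are not made to hold, 46 (2.92%). The TPM of the 114 detected genes shorter than 200 bases is not reliable, because dividing by a short length inflates few reads, and these genes are not named.

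The counts were spread over many genes. The 10 largest genes by CPM held 9.01% ± 0.305 of the counts, the largest 100 held 23.1% ± 0.158 and the largest 1000 held 54.0% ± 0.192. It took 796 genes to reach 50% of the counts and 5542 to reach 90%. The 13 proteins encoded in the mitochondrial genome, all subunits of the respiratory chain and its ATP synthase, held 6.91%, 7.89% and 6.59% of the counts in libraries 1, 2 and 3. These 13 genes were all among the 20 highest by TPM, led by COX2 at 37532 ± 2711 TPM and COX3 at 33467 ± 5864 TPM. With the median transcript length COX2 and COX3 still led, at 13831 and 12346 TPM. ND3, ND5 and ND6 were then at 2455, 1918 and 1558 TPM and left the 20 highest. They lay below nuclear genes such as ACTB (6904 TPM), EEF2 (6190 TPM) and VIM (5369 TPM). The 79 cytosolic ribosomal protein genes held 6.88% ± 0.320 of the counts and made up 41 of the 100 highest genes by TPM.

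The highest nuclear gene was EEF1A1, the elongation factor that brings transfer RNA to the ribosome, with 17926, 16353 and 19986 CPM in the 3 libraries. It stood at 10431 ± 1141 TPM, 51.1 times its paralogue EEF1A2 (22.4 times with the median transcript length), and at 1.81% ± 0.182 of all counts. All 9 listed translation factors were above 100 TPM in every library, a level that 7.16% of protein-coding genes reached. EEF2, which moves the ribosome along, was at 3042 ± 122 TPM, and EIF4A1, the helicase of initiation, at 1394 ± 34.3 TPM.

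Outside translation and mitochondria, the highest levels belonged to iron storage, glycolysis, the cytoskeleton and chaperones. FTL and FTH1, the light and heavy chains of ferritin, were at 6782 ± 606 and 3044 TPM. GAPDH was at 6279 ± 617 TPM and ACTB, cytoplasmic actin, at 5968 ± 272 TPM. VIM, the intermediate filament protein of mesenchymal cells, had 5950, 6023 and 5968 CPM, nearly the same in all 3, and stood at 5741 ± 35.4 TPM. The actin-binding thymosins TMSB10 and TMSB4X followed at 5103 and 3847 TPM, then GNB2L1, a ribosome-bound scaffold, at 3432 TPM. NPM1, a nucleolar chaperone, was at 3119 TPM. The cytosolic chaperones HSP90AB1, HSPA8 and HSP90AA1 were at 2579, 2491 and 2152 TPM, and HSP90AA1 lay above HSP90AB1 with the median transcript length.

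The same range held genes of other functions, some of them best known from particular cell types. ALDH1A1, which makes retinoic acid and is widely used as a stem cell marker, had 1686, 1504 and 1784 CPM and was at 2015 ± 190 TPM, rank 49 of all genes. SCD, which introduces the double bond of oleic acid, was at 1588 ± 58.3 TPM, and APP, the amyloid precursor, at 1425 ± 78.4 TPM. SRGN, the core protein of a granule proteoglycan best known from blood cells, had 502, 589 and 559 CPM and was at 1164 ± 90.8 TPM. MT2A, a metal-binding metallothionein, was at 1304 ± 213 TPM, with its relative MT1E at 836 TPM. Metallothionein genes are near-identical, so the split of their reads between them is uncertain.

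The sequence at the start of transcription was set beside the level classes. Genes for ribosomal proteins and elongation factors are known to start at a C within a run of pyrimidines (C or T), by which growth signalling controls the translation of their RNA. In RefSeq promoters (GRCh38.p14), a start counted as of this kind where, within 3 bases of the annotated start, a C was followed by at least 4 pyrimidines. The share was 13.03% of all 35116 promoter entries, 13.9% (804 of 5800) in moderate genes, 19.98% (211 of 1056) in high genes and 48.5% (33 of 68) in very high genes. All entries together are not a like set, since they hold several entries for some genes and are not limited to protein-coding genes. The class shares use the first entry of each nuclear protein-coding gene. Without ribosomal proteins, 9 of 36 very high genes had it (25%). The starts of 3 very high genes are shown to make the run visible, with 40 bases before the start and 10 after it, on the gene's strand, and the C and its pyrimidines in capitals.
RPL26 (chr17:8383184-8383233, minus strand): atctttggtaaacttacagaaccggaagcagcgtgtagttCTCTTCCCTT
RPS27 (chr1:153990722-153990771, plus strand): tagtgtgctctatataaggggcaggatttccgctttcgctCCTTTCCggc
EEF1A1 (chr6:73521023-73521072, minus strand): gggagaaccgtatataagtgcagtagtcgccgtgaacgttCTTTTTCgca
These genes were at 3219, 2677 and 10431 TPM. Promoters were matched for 84.1%, 83.8% and 81.0% of the nuclear protein-coding genes of the moderate, high and very high classes. For low genes, genes not detected and ribosomal proteins taken alone fewer than 80% matched, and shares are not given for them.

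The TATAAA box, bound by the TATA-binding protein, was searched on the gene's strand from 40 to 16 bases before the start. It was in 0.879% of moderate genes (51 of 5800), 2.84% of high genes (30 of 1056) and 8.82% of very high genes (6 of 68). Over all 35116 entries, again not a like set, it was in 2.30%, and in 0.715% on the opposite strand. Promoters of both inducible and strictly tissue-bound genes are known for this box. MT2A, CXCL8 and AREG are shown as genes with the box at high levels, and PRSS1, PNLIP and INS as genes with the box listed at 0, with TATAAA in capitals.
MT2A (chr16:56608544-56608593, plus strand): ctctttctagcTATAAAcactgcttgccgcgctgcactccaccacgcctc
CXCL8 (chr4:73740529-73740578, plus strand): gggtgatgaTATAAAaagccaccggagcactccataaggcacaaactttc
AREG (chr4:74445096-74445145, plus strand): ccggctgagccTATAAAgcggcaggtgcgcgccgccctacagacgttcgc
PRSS1 (chr7:142749432-142749481, plus strand): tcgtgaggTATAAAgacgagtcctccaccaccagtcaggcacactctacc
PNLIP (chr10:116545891-116545940, plus strand): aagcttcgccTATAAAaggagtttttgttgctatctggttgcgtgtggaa
INS (chr11:2161200-2161249, minus strand): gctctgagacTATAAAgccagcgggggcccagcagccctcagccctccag
MT2A was at 1304 TPM, CXCL8, a neutrophil-attracting chemokine, at 127 ± 13 TPM and AREG, a ligand of the EGF receptor, at 112 ± 9.88 TPM. The same 6 bases stood at a similar distance from the start in the genes of trypsin, pancreatic lipase and insulin, which had no count in any library. A match of letters is a description of these promoters and not a measured site of binding.

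The pancreas of origin was hardly visible. Of 22 acinar markers 1 was detected (4.55%, beside 60.5% of protein-coding genes), and 13 had fewer than 3 counts in every library. The one detected was CEL, the bile salt-dependent lipase, with 3.11, 3.33 and 2.74 CPM. PRSS1, PRSS2 and PRSS3 (trypsinogens), CPA1 (a carboxypeptidase), CELA3A (an elastase), PNLIP (lipase), AMY2A (amylase) and PTF1A, the factor that drives the acinar programme, were listed at 0. NR5A2, another acinar factor, was at 1.17 TPM and was below 1 TPM in library 2, without which 2 acinar markers were detected.

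Few endocrine genes were detected, and 1 of them was high. Of 26 endocrine markers 3 were detected (11.5%), and none of the 6 hormones. INS, GCG, SST, PPY and IAPP had no count, and GHRL was at 0.367 TPM. SCG2, a secretogranin of hormone granules, had 552, 647 and 546 CPM and was at 578 ± 52.2 TPM, rank 180 of all genes. Its level lay 284 times above that of CHGB, the only other granule gene detected. With the median transcript length CHGB was at 0.943 TPM and no longer detected, and the ratio was 987. CHGA, the granule protein most used as a marker, was at 0.0519 TPM. PAX6 was at 5.43 ± 0.389 TPM, while NEUROG3, PAX4 and NKX2-2 were listed at 0.

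Of 13 ductal markers 4 were detected (30.8%), all of them at 10 TPM or more. SOX9, a factor of duct and progenitor cells, had 192, 205 and 199 CPM and was at 129 ± 3.94 TPM. KRT19, the duct keratin, was at 110 ± 9.67 TPM, ANXA4 at 41.4 ± 3.29 TPM and the surface mucin MUC1 at 11 ± 0.606 TPM. With the median transcript length SOX9 was at 47.7 TPM and KRT19 at 86.0 TPM, so that their order reversed and neither was high. The other duct genes were near the floor: KRT7 at 0.214 TPM, EPCAM at 0.481 TPM, CFTR, the chloride channel, at 0.0221 TPM, and SLC4A4, the bicarbonate carrier, listed at 0. Of the markers that define duct cells, SOX9 and KRT19 were thus detected with either length, while KRT7, EPCAM and CFTR were below 1 TPM.

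**Figure D2:**
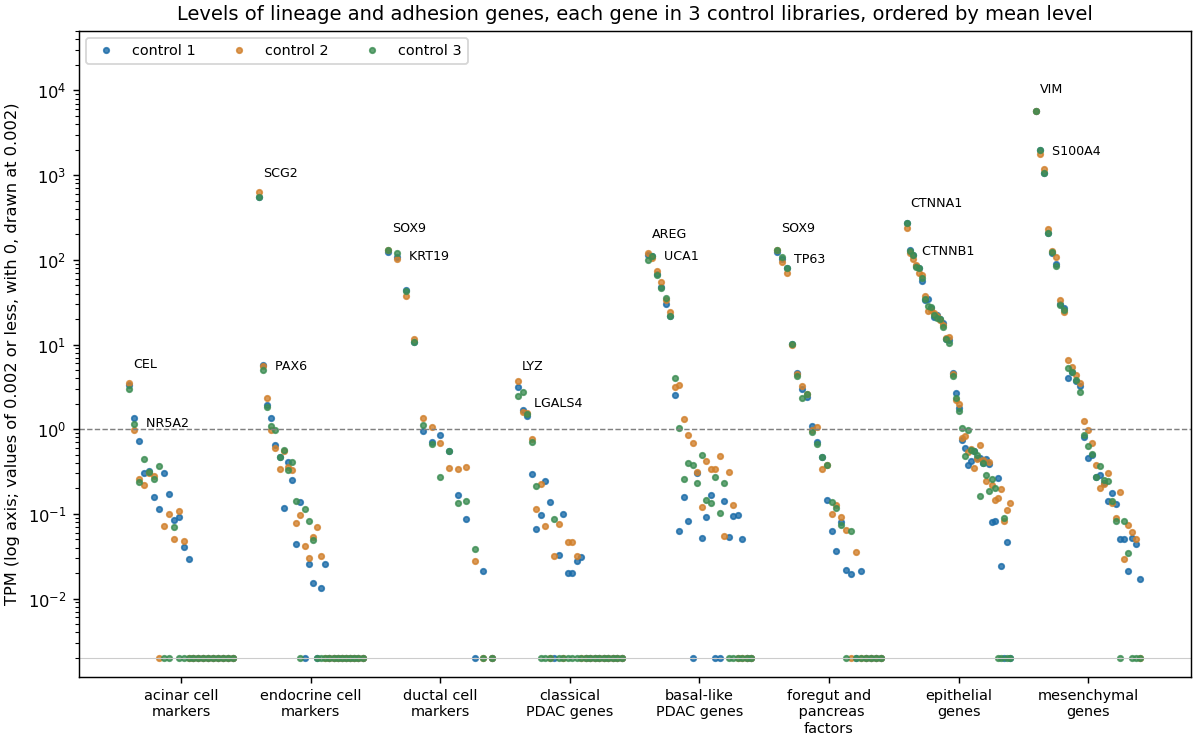
Levels of 8 gene lists, with each gene drawn as 3 points, one per control library, against TPM on a log axis, ordered within a list by mean level, and the leading genes named. Most acinar, endocrine and classical genes lie under the dashed line at 1 TPM, with SCG2 at 578 TPM standing far above the other endocrine markers, and mesenchymal genes reach 5741 TPM with VIM.

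Of 24 genes of the classical tumour type 3 were detected (12.5%), none of them at 10 TPM. These were LYZ (3.10 ± 0.608 TPM), LGALS4 (2.01 ± 0.652 TPM) and ANXA10 (1.5 ± 0.0610 TPM). TFF1 and TFF3, secreted trefoil proteins, AGR2 and AGR3, disulfide isomerases of mucus cells, TSPAN8 and KRT20 were listed at 0. Of 24 basal-like genes 7 were detected (29.2%), 6 of them at 10 TPM or more, a level that 43.5% of protein-coding genes reached in every library. AREG had 55.0, 58.8 and 48.4 CPM, and UCA1, a long noncoding RNA of bladder carcinoma, 115, 111 and 116 CPM. KRT15 was at 69.4 ± 4.13 TPM and the glucose transporter gene SLC2A1 at 49.5 ± 4.19 TPM. Both shares lay below the background of protein-coding genes, and in the basal-like list 13 of 24 genes lay between the 2 thresholds and 4 were not detected.

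Of 22 foregut and pancreas transcription factors 7 were detected (31.8%). GATA6, the factor most tied to the classical type, had 1, 0 and 1 counts in the 3 libraries. HNF4A, FOXA2, FOXA3 and GLIS3 were all under 0.1 TPM, and HNF4G, GATA5, CDX1 and SOX17 were listed at 0. TP63, the factor of squamous epithelia, had 198, 184 and 204 CPM and was at 102 ± 6.39 TPM. EHF, an epithelial ETS factor, was at 76.8 ± 6.50 TPM, and the order of TP63 and EHF reversed with the median transcript length. GATA4, a relative of GATA6, was at 10.1 ± 0.154 TPM. FOXA1 and KLF5, factors of gut epithelia, were detected at 2.54 and 2.83 TPM, and the epithelial ETS factor ELF3 at 4.43 TPM.

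Epithelial adhesion genes were detected in parts. Of 23 of them 14 were (60.9%), close to the background share of 60.5%. CTNNA1, CTNNB1 and CTNND1, the catenins that link cadherins to actin, were at 260 ± 19.2, 126 ± 6.28 and 109 ± 7.25 TPM. CDH1, the E-cadherin they bind in epithelia, had 30, 14 and 6 counts, or 0.327 ± 0.107 TPM, so that CTNNB1 lay 385 times above it (294.7 to 489 over the libraries). CDH2, the N-cadherin of mesenchymal cells, was at 0.00562 TPM, and CDH3 and CDH11 at 0.639 and 0.0433 TPM. Of 23 genes of the CDH series 5 were detected and none reached 10 TPM, the highest being CDH24 (7.70 ± 0.995 TPM), CDH12 (7.0 TPM) and CDH10 (6.55 TPM), which were named after their values were seen. The desmosomal cadherin DSG2 was at 22.3 ± 1.45 TPM, while its partner DSC2 was at 0.413 TPM. Desmoplakin (DSP) and plakoglobin (JUP) were at 19.7 ± 0.359 and 29.1 ± 4.66 TPM.

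Of 21 claudins, the strand proteins of tight junctions, 5 were detected (23.8%). CLDN11, best known from myelin and testis, had 389, 427 and 379 CPM and was at 470 ± 26.0 TPM, 5.54 times CLDN4 (84.8 ± 1.93 TPM) and 7.63 times CLDN1 (61.5 ± 5.53 TPM). CLDN7 and CLDN3, which most gland epithelia make, were at 0.631 and 0.0446 TPM. CLDN18, a stomach and pancreatic tumour claudin, was at 0.244 TPM. Of 14 mucins only MUC1 was detected, and MUC5AC and MUC7 were listed at 0.

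Keratins were limited to the simple pair and a few others. KRT18 and KRT8, which pair in simple epithelia, had 1126, 1255 and 1223 CPM and 1174, 1221 and 1233 CPM, and stood at 1472 ± 80.2 and 1082 ± 31.7 TPM. Their order reversed with the median transcript length. KRT80, a keratin of many epithelia, was at 68.6 ± 5.01 TPM. In all, 7 of 37 keratins were detected (18.9%) and 19 had fewer than 3 counts in every library. The count of 7 became 11 without library 1, where KRT5, KRT14, KRT6A and KRT16, keratins of stratified epithelia, were below 1 TPM. KRT5 was at 0.519, 3.44 and 2.52 TPM and KRT14 at 0.659, 5.80 and 3.69 TPM in libraries 1, 2 and 3. S100A7, S100A8 and S100A9, which the epidermis also makes, had 2, 173 and 29 counts together and moved with them. Their part in the count of keratins was not tested.

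Vimentin lay 5.31 times above KRT8 by TPM, and both were among the 100 highest genes of the same libraries. Of 18 structural and matrix genes of the mesenchymal list 10 were detected (55.6%), and 5 were above 100 TPM in every library. S100A4, a calcium-binding protein of motile cells, had 581, 536 and 578 CPM (1916 ± 99.7 TPM). CD44, the hyaluronan receptor, had 2359, 2652 and 2350 CPM (1095 ± 68.5 TPM). LOXL2, a matrix crosslinker, was at 216 ± 13.3 TPM. FN1, fibronectin, was at 0.568 ± 0.104 TPM, and SPARC and THBS1 were at 0.686 and 0.970 TPM. With the median transcript length SPARC and THBS1 were detected, at 1.63 and 5.06 TPM, and FN1 was not, at 0.805 TPM.

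Of 9 factors that drive the mesenchymal state 2 were detected. ZEB1, a repressor of CDH1, had 65.2, 59.5 and 62.0 CPM and was at 25.4 ± 1.26 TPM, and SNAI1 was at 4.96 ± 0.389 TPM. ZEB2, SNAI2, TWIST1 and TWIST2 were at 0.309, 0.101, 0.0317 and 0.0376 TPM. The epithelial splicing factors ESRP1 and ESRP2 and the factors GRHL2 and OVOL2 were at 0.468, 0.325, 0.0571 and 0.0522 TPM.

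Collagen chains were uneven within the trimers they form. Of 44 chains 16 were detected (36.4%). COL5A2 had 1337, 1502 and 1238 CPM and was at 491 ± 44.0 TPM, 124 times its partner chain COL5A1 (3.94 ± 0.351 TPM). With the median transcript length that ratio was 13.3. COL1A2 was at 189 ± 17.3 TPM, while COL1A1, with which it forms type I collagen, was at 0.564 ± 0.0963 TPM, 336 times lower (222 times with the median transcript length). COL3A1 was at 106 ± 12.4 TPM. COL5A2, COL1A2 and COL3A1 were each highest in library 2 and lowest in library 3.

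Markers of cells other than carcinoma cells were few. Among 11 fibroblast and stellate cell markers 3 were detected (27.3%), which were COL1A2, COL3A1 and ACTA2 (15.5 ± 0.784 TPM). The defining surface markers PDGFRA, PDGFRB and THY1 were at 0.0971, 0.140 and 0.247 TPM, and FAP was listed at 0. Of 7 endothelial markers 2 were detected, CDH5 at 4.06 ± 0.297 TPM and ESAM at 2.31 ± 0.330 TPM, with PECAM1, VWF and KDR at 0.339, 0.0746 and 0.0691 TPM. With the median transcript length PECAM1 was detected, at a mean of 1.47 TPM, and ESAM, at a mean of 1.08 TPM, was not. Of 12 blood cell markers 3 were detected, led by CD68, a lysosomal protein that other cells also make, at 22.2 ± 1.51 TPM, while PTPRC, the marker of all white blood cells, was at 0.0241 TPM. None of 8 neuronal genes of the cells used to package viruses was detected, the highest being ELAVL3 at 0.509 TPM.

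Of the RAS proteins, small switches that carry growth signals, NRAS was at 60.6 ± 4.81 TPM, HRAS at 53 ± 2.79 TPM, RRAS at 56.5 ± 0.920 TPM, RRAS2 at 95.1 ± 4.33 TPM and MRAS at 11 ± 1.36 TPM. The order of NRAS and HRAS reversed with the median transcript length. Of 60 genes of the RAS and ERK pathway 48 were detected (80%).

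Among the adaptors SHC1, GRB2 and PTPN11 were at 364 ± 25.6, 91.6 ± 3.79 and 160 ± 7.10 TPM, and the exchange factors SOS1 and SOS2 at 20.5 ± 1.05 and 31.8 ± 1.69 TPM, an order that reversed with the median transcript length. Of the exchange factors of blood and nerve cells RASGRP2 was detected at 2.07 TPM and RASGRP3 was at 0.718 TPM. The lowest were RASGRP4, RASGRF1 and RASGRF2 at 0.0671, 0.132 and 0.173 TPM. Among the kinases MAP2K2 (MEK2) had 377, 372 and 365 CPM and was at 325 ± 4.26 TPM, 11.9 times MAP2K1 (MEK1). ARAF was at 62.6 ± 2.57 TPM and BRAF at 17.5 ± 0.909 TPM. MAPK3, the kinase ERK1, was at 60.1 ± 3.20 TPM.

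Of 19 genes that the pathway switches on 18 were detected (94.7%) and 6 were above 100 TPM in every library. MYC had 241, 242 and 239 CPM and was at 260 ± 1.02 TPM. CCND1, cyclin D1, was at 186 ± 15.3 TPM, SPRY2 and SPRY4, feedback inhibitors of the pathway, at 184 ± 9.69 and 136 ± 7.12 TPM, and PHLDA1 at 144 ± 5.49 TPM. SPRY4 lay above SPRY2 with the median transcript length. The phosphatases that switch ERK off stood apart from these. DUSP6, often read as a gauge of ERK activity, had 3.14, 3.60 and 4.02 CPM and was at 2.09 ± 0.267 TPM, 88.5 times below SPRY2 (24.3 times with the median transcript length). DUSP4 was at 0.312 ± 0.0512 TPM and DUSP5 at 4.69 ± 0.517 TPM.

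Of 57 receptor tyrosine kinases 26 were detected (45.6%), and EPHA2, a receptor of ephrins, was the only one above 100 TPM in every library (175 ± 11.8 TPM). With the median transcript length EPHA4 (335.9 TPM) lay above EPHA2 (306.9 TPM). EGFR, IGF1R, ERBB2 and RYK then had means from 129.5 to 162.8 TPM, and EPHB4 a mean of 107.6 TPM. EGFR had 366, 430 and 363 CPM and ERBB2 176, 199 and 167 CPM. By TPM they were at 101 ± 9.03 and 93.7 ± 7.73, and their libraries overlapped. AXL, a receptor of mesenchymal cells, was at 69.0 ± 6.40 TPM and MET, the receptor of hepatocyte growth factor, at 16.3 ± 0.539 TPM. ERBB4 was at 0.00435 TPM, and MUSK, EPHA6 and ROS1 were listed at 0.

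CDKN1A, an inhibitor of cyclin-dependent kinases, was at 6.98 ± 0.829 TPM, 10.4 times below CDKN1B (72.8 ± 3.11 TPM), or 24.0 times with the median transcript length. SMAD4 had 81.0, 80.8 and 80.7 CPM and was at 23.6 ± 0.197 TPM. TGFBR2, the receptor that starts the signal SMAD4 carries, had 31, 23 and 14 counts, or 0.543 ± 0.152 TPM, while its partner TGFBR1 was at 8.68 ± 0.276 TPM. Of 38 tumour suppressors of this carcinoma 30 were detected (78.9%). Among 10 chromatin genes 8 were, with SMARCA4 at 72.3 ± 3.06 TPM and ARID1A at 11.7 ± 0.780 TPM. KDM6A, a histone demethylase, had 3, 3 and 1 counts and ARID1B, a partner of SMARCA4, 4, 5 and 1. RNF43, which removes Wnt receptors, had 4, 3 and 1 counts.

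CDKN2A, which encodes p16 and p14ARF, had no count in any library, and CDKN2B had 0, 1 and 0 counts. MTAP, their neighbour and the enzyme that recycles methylthioadenosine, had 26, 28 and 9 counts, or 0.283 ± 0.0324 TPM. The run of genes around them on the short arm of chromosome 9 was read in the order of RefSeq genes. From SLC24A2 to TUSC1, 28 protein-coding genes in a row had a mean below 1 TPM, with 19 of them listed at 0 in all libraries. Of these 28, 16 were interferon genes, which are silent in most cells unless a virus is sensed, and 12 were others. Among those 12, FOCAD, MLLT3, HACD4, KLHL9 and ELAVL2 had 0 to 20 counts in any library. On one side of the run stood ACER2 at 2.30 TPM and RPS6 at 2372 TPM, and on the other CAAP1 at 22.6 TPM and PLAA at 29.1 TPM. The genome itself was not measured.

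**Figure D3:**
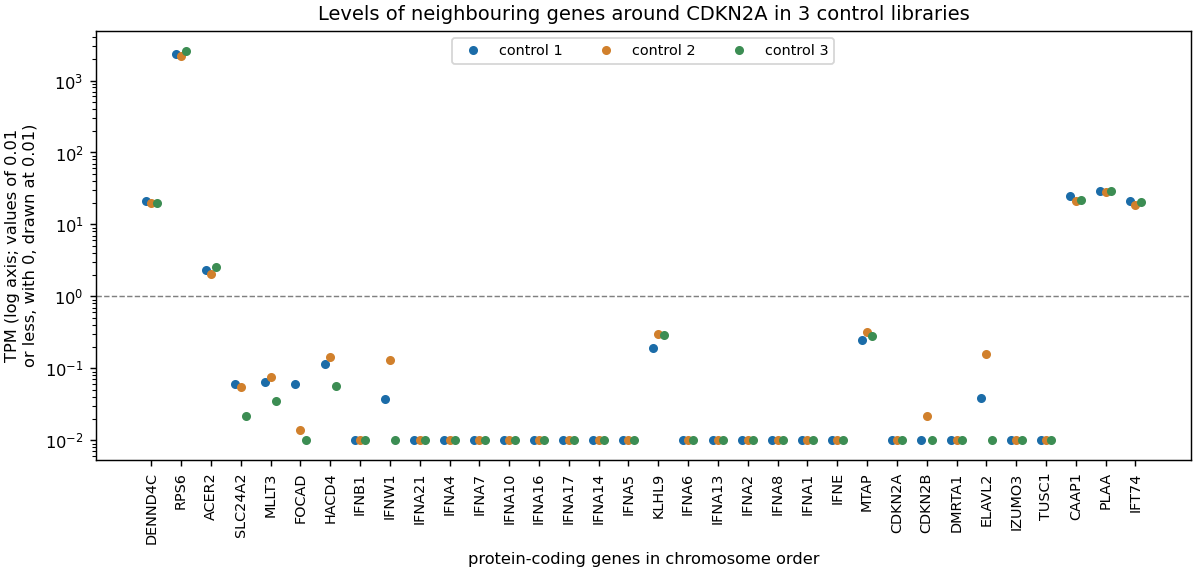
Levels of 34 protein-coding genes in chromosome order around CDKN2A, with TPM on a log axis and 1 point per control library, and values of 0.01 TPM or less drawn at 0.01. The 28 genes from SLC24A2 to TUSC1 lie at or below 0.316 TPM in every library, and the genes on both sides lie above 2 TPM.

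MSI2 was the more abundant of the Musashi genes. MSI1 had 5.02, 4.64 and 4.20 CPM, or 176, 138 and 46 counts, and was at 3.97 ± 0.337 TPM. MSI2 had 82.6, 82.6 and 87.7 CPM and was at 28.4 ± 1.21 TPM. MSI2 lay 7.13 times above MSI1 (6.43 to 8.16 over the libraries), and 23.2 times with the median transcript length. NUMB, the best-known target of MSI1, was listed at 0 in all libraries, as some core genes were. Other RNA-binding proteins were higher: IGF2BP3 and IGF2BP2, fetal proteins that stabilise bound messages, were at 245 ± 21.1 and 211 ± 10.5 TPM, and IGF2BP1 was at 0.206 TPM.

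Of 13 surface and enzyme markers of stem cells 5 were detected (38.5%). ALDH1A1 and CD44 stood among the 100 highest genes, and ALDH1A3 was at 154 ± 12.2 TPM, 13.1 times below ALDH1A1 (6.23 times with the median transcript length). PROM1 (CD133) had 5, 1 and 4 counts and CXCR4 had 6, 6 and 1. LGR5 and DCLK1, markers of gut stem and tuft cells, were at 0.0106 and 0.0340 TPM, and ABCB1, a drug pump, was listed at 0. HMGA1 was at 667 ± 14.2 TPM while its relative HMGA2 was at 0.312 ± 0.106 TPM, 2138 times lower (466 times with the median transcript length).

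Genes of cell division were nearly all detected. Of 50 cell cycle genes 47 were detected (94%) and 19 were above 100 TPM in every library. All 19 mitotic genes were at 10 TPM or more, led by CCNB1 (321 ± 22.9 TPM), UBE2C (289 ± 13.4 TPM) and TOP2A (238 ± 10.2 TPM). With the median transcript length TOP2A (873.8 TPM) and MKI67 (424.4 TPM) led, and UBE2C was at 142.1 TPM. MKI67 had 330, 332 and 328 CPM. PCNA, TYMS and MCM7, which serve replication, were at 262 ± 7.49, 236 ± 9.76 and 220 ± 9.99 TPM. CDK4 lay 11.7 times above CDK6 (2.11 times with the median transcript length), and CCND2 was at 0.742 TPM. The only listed genes with fewer than 3 counts were CDKN2A and CDKN2B.

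Of 38 glycolysis genes 29 were detected (76.3%) and 11 were high, with 1 paralogue ahead at most steps. LDHA, which turns pyruvate into lactate, had 921, 858 and 943 CPM and was at 961 ± 55.0 TPM. LDHB, its partner in the tetramer, had 40, 46 and 16 counts, or 2.30 ± 0.351 TPM, 418 times lower. PKM was at 1132 ± 46.1 TPM and the liver form PKLR had 3, 4 and 0 counts. ALDOA was 48.9 times ALDOC. ENO1 was 33.0 times ENO2, and HK1 was 3.24 times HK2 (30.3 ± 0.577 TPM), or 16.3 times with the median transcript length. The 3 phosphofructokinase genes lay closer, with PFKP at 135 ± 16.2, PFKM at 85.2 ± 2.37 and PFKL at 81.3 ± 1.87 TPM.

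The lactate carrier SLC16A1 was at 134 ± 10.4 TPM, 4.30 times SLC16A3. Of the enzymes that run the path backwards, PCK2, the mitochondrial form, was at 76.5 ± 6.37 TPM. PCK1, its cytosolic form, had 5, 1 and 0 counts, and FBP1 was listed at 0. In glutamine metabolism GLS2 was at 0.161 TPM. Among antioxidant genes PRDX1 (1345 ± 82.6 TPM), NQO1 (668 ± 37.3 TPM) and TXN (526 ± 25.9 TPM) were the highest by the longest transcript length, and 16 of 18 were detected. GPX2, the gut glutathione peroxidase, was at 0.140 TPM.

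Genes that handle gemcitabine, the nucleoside drug used against this carcinoma, were mostly detected (20 of 24, 83.3%). SLC29A1, the carrier that lets it in, was at 78.6 ± 4.22 TPM, 146 times SLC28A1 (320 times with the median transcript length), and SLC28A3 was at 0.00996 TPM. DCK, which phosphorylates it first, had 24.9, 20.2 and 24.9 CPM and was at 22.0 ± 2.71 TPM. CDA, which breaks it down, was at 10.2 ± 1.62 TPM, 2.16 times below DCK. Its targets RRM1 and RRM2, the subunits of ribonucleotide reductase, were at 145 ± 4.97 and 120 ± 11.4 TPM.

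HOX genes, which mark position along the body axis, were detected mainly from 1 cluster. In HOXB 9 of 10 genes were detected (90%), in HOXA 5 of 11, in HOXC 2 of 9 and in HOXD none of 9. HOXB9 had 205, 182 and 210 CPM and HOXB8 85.4, 82.3 and 90.2 CPM, or 197 ± 16.3 and 121 ± 6.61 TPM, an order that reversed with the median transcript length. The highest gene of any other cluster was HOXA3 at 6.24 ± 0.390 TPM, 31.6 times below HOXB9 and 5.56 times below it with the median transcript length. HOXB1 was listed at 0. All 9 HOXD genes were below 0.2 TPM, as the map of the clusters shows.

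**Figure D4:**
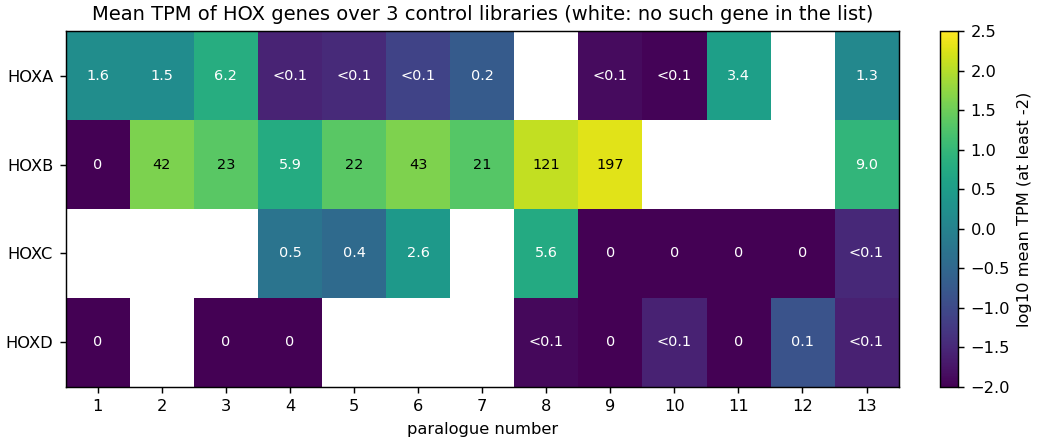
Mean TPM of the HOX genes over 3 control libraries, with the 4 clusters as rows, the paralogue number as columns and colour for log10 TPM. The HOXB row is at 5.88 TPM or more in all genes except HOXB1, and the HOXD row is nearly empty.

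Of 48 nuclear receptors 20 were detected (41.7%). The orphan receptors NR2F1 and NR2F2, factors of mesenchymal and venous cells, were at 166 ± 7.72 and 80.01 ± 4.86 TPM. Among 6 steroid receptors only the glucocorticoid receptor NR3C1 was detected (14.4 ± 0.547 TPM), with ESR1 and PGR at 0.00376 and 0.00207 TPM. VDR, the vitamin D receptor, was at 0.640 TPM and NR1H4, the bile acid receptor, was listed at 0. In the hedgehog pathway, which carcinoma cells use to signal to stroma, SHH was at 7.60 ± 0.698 TPM and its targets GLI1 and HHIP at 0.273 and 0.0189 TPM.

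ITGB1, the shared beta chain of most matrix receptors, had 1365, 1652 and 1441 CPM and was at 1005 ± 94.4 TPM. Its main partners were ITGA3, a laminin receptor chain, at 92.4 ± 9.02 TPM, ITGAV at 39.4 ± 3.79 TPM and ITGA5 at 28.2 ± 4.02 TPM. ITGB4, which binds laminin with ITGA6, was at 131 ± 13.9 TPM. The collagen-binding chains ITGA1, ITGA2 and ITGA11 were at 0.116, 0.303 and 0.216 TPM, although ITGA10 was at 6.21 TPM. In all, 11 of 25 integrin genes were detected (44%).

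Among secreted factors, CXCL8 and CXCL1, which attract neutrophils, had 74.96, 88.7 and 90.6 CPM and 52.9, 56.6 and 47.6 CPM, and their libraries overlapped by TPM. CXCL5 was at 48.2 ± 1.78 TPM. CXCL9 and CXCL10, induced by interferon, were listed at 0. LIF, a cytokine that acts through the same coreceptor as IL6, was at 74.1 ± 6.56 TPM, while IL6 had 1, 0 and 1 counts. VEGFC was at 60.9 ± 1.24 TPM and VEGFA at 8.52 ± 0.469 TPM, an order that reversed with the median transcript length.

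Of 13 genes for presentation on class I molecules 12 were detected, led by B2M, the light chain, with 506, 507 and 505 CPM (539 ± 3.67 TPM). HLA-B was at 243 ± 33.3 TPM, though reads of HLA genes are hard to tell apart. Of 9 class II genes 3 were detected, with CD74 at 6.36 ± 0.803 TPM and the master regulator CIITA at 0.460 TPM. Of 26 cancer-testis antigens 1 was detected (3.85%), PRAME at 45.4 ± 1.90 TPM, and 22 had fewer than 3 counts in every library.

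Cell death genes were led by MCL1 (244 ± 8.86 TPM) and BCL2L1 (100 ± 5.43 TPM) among the protective members, with BCL2 at 2.08 ± 0.141 TPM, 118 times below MCL1. Among the killers BAX was at 149 ± 8.69 TPM and BAK1 at 49.0 ± 3.59 TPM. S100A6, S100A4 and S100A11 were above 1000 TPM in every library, and S100P and S100A14, which many pancreatic carcinomas make, were at 0.343 and 0.548 TPM. ANXA1, an annexin, was at 1398 ± 40.03 TPM and ANXA3 at 0.262 TPM.

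**Figure D5:**
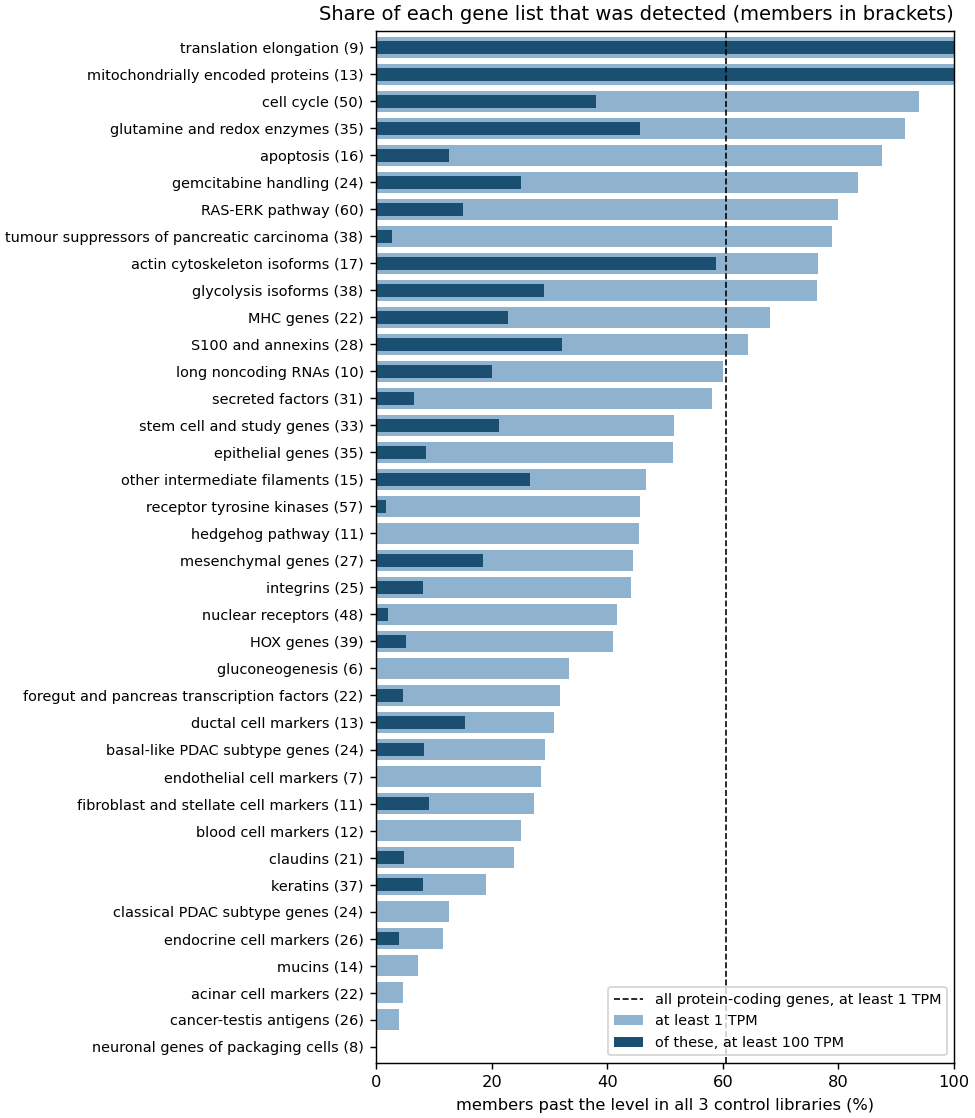
Share of the members of each of 38 gene lists that reached 1 TPM in all 3 control libraries (light bars) and 100 TPM (dark bars), in percent, with the number of members in brackets and a dashed line at 60.5%, the share of all protein-coding genes. Translation, mitochondrial, cell cycle and redox lists lie above the line, and lineage lists lie below it, down to the neuronal list with no member detected.

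Whole families outside the lists gave the lower end of the range. None of 373 olfactory receptor genes was detected, and 368 of them had fewer than 3 counts in every library. The same held for 90 of 92 keratin-associated proteins and 35 of 37 beta-defensins. Of 502 zinc finger genes with ZNF symbols 405 were detected (80.7%), but only 1 was above 100 TPM in every library and their median was 5.97 TPM. All 77 mitochondrial ribosomal proteins were detected.

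The control libraries resembled each other closely. The biological coefficient of variation, the spread between libraries beyond counting error estimated by edgeR over 12683 genes, was 6.31%. It was 7.31% without library 1, 4.29% without library 2 and 6.73% without library 3, so library 2 carried the most of it. The difference within each pair of libraries still exceeded sampling noise: the chi-square divided by its degrees of freedom was 10.5 for libraries 1 and 2, 3.65 for 1 and 3, and 8.39 for 2 and 3. None was counted as a repeat of another.

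Of 9461 genes with a mean of at least 10 CPM, 39 (0.412%) differed by at least 1.5-fold between the highest and the lowest library, and 2 by at least 2-fold. Library 3 was the lowest in 26 of the 39 and library 2 the highest in 21. The most variable were GUSBP11, a pseudogene of beta-glucuronidase, with 14.7, 18.6 and 7.95 CPM, and UPK3BL, with 20.2, 16.6 and 9.13 CPM. RTEL1, a helicase of telomeres, had 22.0, 21.4 and 11.1 CPM. They were followed by ATP8, SLC27A3, ANKRD36 and GTF2IRD2B, all lowest in library 3, by MGAT2 and ATP5I, highest in library 3, and by RN7SL1, the RNA of the signal recognition particle, highest in library 1. Several of these have near-identical copies in the genome, so that the split of their reads is uncertain.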

How the data were processed

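RNA was sequenced in 3 control libraries. The authors deposited estimated counts per gene as whole numbers, not scaled between libraries, per the file headers. The submitters' processing notes list kallisto 0.42.1, CASAVA 1.4 and hg19 but not what each was used for. How transcripts were chosen and summed to genes, any filter and the strandedness: not given in the sources used here. Reads of near-identical genes are split by a model, so such genes are uncertain.

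The 3 control columns were scaled to CPM of the library total and to TPM with the longest GENCODE 29 transcript, for 98.8% of genes (24241 of 24528). The 9 columns of the other groups were not used. Estimated counts needed no rounding. Spread was estimated with edgeR 4.0.16 in R 4.3.3 (TMM factors, intercept only, genes with at least 10 counts in every library). With the filterByExpr filter of edgeR instead, it was 6.32% over 13578 genes. The remaining steps used Python 3.11.15 with numpy 2.4.6 and pandas 2.3.3. Promoters are RefSeq entries of 300 bases, matched by gene ID. On simulated data with a spread of 5%, the estimate was 5.00% over 12790 genes, and 99.4% of 20058 genes away from a threshold were put in their level class.

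Lists, members and rules were chosen with earlier results of these data known. Of 959 list entries in 38 lists 954 matched (99.5%), and MUC2, HOTTIP, SNHG1, TUG1 and EPB41L4A-AS1 are not analysed here. Named genes are the 20 highest by TPM, the 15 highest outside translation and mitochondria, in each list and role the 3 highest, the 3 lowest, those not detected and all of a role with 8 members or fewer, 8 genes tied to the study or to this carcinoma, and the 10 most variable genes. Some genes under this rule are not reported here. Other named genes were chosen after their values were seen: the core, epidermal, promoter and chromosome 9 neighbour genes, EIF4A1, SCD, APP, SRGN, MT2A, MT1E, KRT7, EPCAM, PTPRC, PDGFRB, THY1, HNF4A, FOXA3, GLIS3, GATA4, the listed CDH genes, DSG2, DSC2, DSP, JUP, CLDN7, CLDN18, LOXL2, FN1, SPARC, THBS1, SNAI2, ESRP1, ESRP2, COL5A2, COL5A1, COL1A1, SOS1, SOS2, MAP2K1, RASGRP2, RASGRP3, FOXA1, KLF5, ELF3, EPHA4, IGF1R, RYK, BRAF, SPRY4, PHLDA1, AXL, MET, ARID1A, PROM1, CXCR4, MKI67, CDK4, VDR, GLI1, the lower integrin alpha chains, VEGFA and S100A14. Alternatives were the median transcript length, TMM totals, thinning to the smallest library, other TPM thresholds, the mean over libraries, leaving out mitochondrial genes, other low-count filters and size factors, each library left out, and, added after seeing the data, leaving out genes under 200 bases.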

Additional observations from a re-analysis of the deposited data

How the results depend on the processing

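The numbers of detected genes and of genes in each level class, and the spread between libraries, stayed within 1.5 times of the reported value under the alternatives run. Detected genes numbered 12280 to 12392 with each library left out in turn, 11347 at 2 TPM and 12978 at 0.5 TPM. The high class was less firm within that bound. Genes at 100 TPM or more numbered 1371 as reported, 1931 with the median transcript length and 1798 without mitochondrially encoded genes. The counts of list members were less stable where few members stood near 1 TPM. At 0.5 TPM, detected members numbered 11 for keratins, 9 for claudins, 5 for endocrine and 2 for acinar markers. At 2 TPM they numbered 1 for endothelial markers and 1 for classical genes. With the median transcript length 5 fibroblast markers were detected, and with thinning to the smallest library 2 acinar markers. With each library left out in turn, keratins ran from 7 to 11 and acinar markers from 1 to 2. All 38 list counts stayed within 1.5 times with TMM totals. Without mitochondrially encoded genes, the 10, 100 and 1000 largest genes held 5.60%, 18.4% and 50.7% of the remaining counts and ribosomal proteins 7.41%, since the total is then smaller. Of 45 named genes, 40 moved by more than 1 SD in TPM with the median transcript length, by a factor of 0.368 to 5.12, and none did with TMM totals. With 1 of 3 libraries left out, a mean cannot move by more than the SD of the 3, so that count says nothing about stability. The factors with a library left out ran from 0.815 to 1.17. No paired analysis was possible because only 1 group is described and no test is made. Depth limits genes under 1 TPM most in library 3, and intervals of counts were not used. The cause of a gene listed at 0 was not tested.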

Other observations

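Trace levels of epidermal genes differed between the 3 libraries. A list of 41 genes of skin and other stratified epithelia was drawn up after values of KRT1 and S100A8 had been seen, and 36 of them had at least 3 counts in a library. Of these 36, library 2 was the highest by CPM for 20, library 3 for 15 and library 1 for 1. Among all genes of comparable or lower level, library 1 was the highest for 27.7%, library 2 for 42.6% and library 3 for 29.7%. The genes of the basal layer and of injured or inflamed epidermis went to library 2. KRT5 and KRT14 together had 33, 215 and 53 counts (0.942, 7.22 and 4.84 CPM), and S100A7, S100A8 and S100A9 together had 2, 173 and 29 counts (0.0571, 5.81 and 2.65 CPM). KRT6A had 2, 90 and 10 counts.

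Of 14 cornified layer genes with a count, 8 were highest by CPM in library 2 and 6 in library 3. The differentiated layer keratins KRT1 and KRT2, as well as FLG and DCD, were highest in library 3. KRT1 had 82, 28 and 74 counts (2.34, 0.941 and 6.76 CPM), KRT2 24, 3 and 26 counts, and FLG, the filament-binding protein of the cornified layer, 24, 6 and 24 counts. DCD, a peptide of sweat glands, had 11, 8 and 17 counts (0.314, 0.269 and 1.55 CPM). The 41 genes summed to 28.9, 42.3 and 49.9 CPM in libraries 1, 2 and 3, of which KRT10, made by many cells, gave 9.45, 7.32 and 11.3 CPM. DSG3, SPRR3 and IVL, which define stratified epithelia, had 0 to 11 counts in any library. Where these transcripts came from was not tested. KRT15 had 141, 152 and 133 CPM.

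In families outside the lists, the highest members were named after their values were seen. Among 370 solute carriers 203 were detected (54.9%), led by the mitochondrial adenine nucleotide carriers SLC25A5 (1024 TPM) and SLC25A6 (932 TPM) and the amino acid carrier SLC38A2 (713 TPM). SLC7A5 and SLC3A2, the chains of a carrier of large neutral amino acids, were at 225 and 165 TPM. Among 56 cytochromes P450 15 were detected, and the only one above 100 TPM in every library was CYP51A1, an enzyme of cholesterol synthesis, with 181, 219 and 191 CPM. Among 83 potassium channel genes 16 were detected, led by KCNN4, a calcium-activated channel, at 96.0 ± 10.9 TPM. Among 22 gamma protocadherins only PCDHGC3 was detected (52.6 ± 2.52 TPM), although these genes share their last exons and the split of reads is uncertain. Among 19 Wnt ligands 4 were detected and none reached 10 TPM, with WNT5B the highest at 3.90 TPM.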
